A study of Mus musculus with 60 samples.

Results

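This section concerns 7 genes of antibody secretion, taken by name from the 41079 genes of a count table: Pigr, Ccl28, Jchain, Ccr10, Mzb1, Tnfrsf17 and Cd79a. They were followed in 60 bulk poly(A) RNA-seq libraries from 12 mice, with levels given for every tissue, strain and sex, so that genes of antibody transport (Pigr, Ccl28) could be read apart from the lymphoid content of a library. From each animal the parotid, submandibular and sublingual salivary glands, the pancreas and the liver were sequenced. The mice were of CD1, an outbred stock, or C57, an inbred strain, with 3 males and 3 females of each, which gives 20 groups of 3 libraries. No allele, transgene or treatment is recorded, and the ages of the mice are not given in the sources used here. No sorting of cells is recorded, so each library mixes all cell types of the organ, and with them any lymph node or neighbouring tissue taken along.

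Antibodies reach saliva, bile and pancreatic juice mainly as dimeric IgA. Plasma cells in the stroma of a gland join IgA monomers through the J chain, encoded by Jchain. The polymeric immunoglobulin receptor, encoded by Pigr, binds that J chain at the basolateral face of epithelial cells (in rodents also of hepatocytes), carries the dimer across the cell and is cleaved to release secretory IgA. Ccl28 encodes a chemokine of mucosal epithelia and glands, and Ccr10 encodes the receptor on IgA plasmablasts that follows it. Mzb1 encodes an endoplasmic reticulum chaperone of antibody-making B cells, and Tnfrsf17 encodes BCMA, a survival receptor of plasma cells. Cd79a encodes a signalling chain of the B cell receptor, is present from early B cells onward and serves here as the member that marks B cells before the plasma cell stage.

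Levels are given as CPM (counts scaled to a common library total) after TMM scaling, which adjusts each library's total for a few very abundant genes. Library totals ran from 29.9 to 66.6 M counts (M, mega) with a median of 40.5 M. The scaling factor had a median of 1.73 in sublingual, 1.18 in submandibular, 1.01 in parotid, 0.924 in liver and 0.418 in pancreas libraries, so levels set across tissues depend on it. Fewer cells of a type and less RNA per cell cannot be told apart in such libraries. Secreted-protein genes of 1 organ were found at low levels in the others: median Bpifa2, a parotid product, was 0.896 to 2.31% of its parotid median elsewhere, Amy1 (salivary amylase) 0.484 to 1.85%, Muc19 (the sublingual mucin) 0.907 to 2.54% of its sublingual median, the pancreatic Cpa1 0.0955 to 0.132% and the hepatic Alb 0.299 to 1.37%. In all, 3 libraries stood apart from the rest of their tissue, pancreas CD1 female 2, pancreas CD1 female 3 and sublingual C57 male 2 (the lowest sublingual library for Pigr, at 952.7 CPM, and for Ccl28, at 242 CPM), and calls that were gained or lost without them are given with the results. For sublingual C57 male 2 these 2 members are the only trait given. Its summed epithelial and tissue identity genes (2170 and 20537 CPM) lay within the range of the other sublingual libraries. Parotid CD1 female 2, with summed epithelial genes at 167 CPM, was kept. Fits without the 3 libraries thus rest in part on the members' own values.

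In the sublingual gland the transport genes were the most abundant members. Per kilobase of exon, the sublingual median was 359.6 CPM for Pigr and 106.4 CPM for Ccl28, against 16.7 CPM for Jchain, 1.74 CPM for Mzb1, 0.729 CPM for Cd79a, 0.308 CPM for Ccr10 and 0.0494 CPM for Tnfrsf17. In liver, Pigr was the most abundant member, at a median of 328.7 CPM per kilobase. Pigr has its first listed exon on chromosome 1 at 130754421 to 130754544 (GRCm39, plus strand). Ccl28 has it on chromosome 13 at 120085355 to 120085472 (plus strand), Jchain on chromosome 5 at 88667663 to 88669385 (minus strand), and Cd79a on chromosome 7 at 24596922 to 24597013 (plus strand). Ccr10 lies on chromosome 11 at 101063824 to 101065504 (minus strand) and Tnfrsf17 starts on chromosome 16 at 11131131 to 11131931 (plus strand). Counts were low for 2 members. Ccr10 had a median of 10.5 counts a library and was at 0 in 7 of 60, and Tnfrsf17 had a median of 2 counts and was at 0 in 21 of 60. A count of 0 allows up to 3 counts, or 0.0340 to 0.229 CPM depending on the library.

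Promoter sequences are shown for 4 members because their levels followed 4 different courses across the organs: high in sublingual and liver (Pigr), high in the salivary glands and low in liver (Ccl28), high in sublingual and in some parotid libraries (Jchain), and high with lymphoid transcripts (Cd79a). Each run covers the 250 bases before to 30 bases after the RefSeq start in GRCm38.p6, which is an earlier build than that of the counts, and 5 of the 7 members had an entry. Capitals mark matches, on either strand, to the E-box CACGTG, the core AAANNGAAA of interferon response elements, the octamer ATTTGCAT of immunoglobulin promoters or the ETS core AGGAAGT; no searched motif overlapped another in these runs.
Pigr, chr1:130826434-130826713, plus strand: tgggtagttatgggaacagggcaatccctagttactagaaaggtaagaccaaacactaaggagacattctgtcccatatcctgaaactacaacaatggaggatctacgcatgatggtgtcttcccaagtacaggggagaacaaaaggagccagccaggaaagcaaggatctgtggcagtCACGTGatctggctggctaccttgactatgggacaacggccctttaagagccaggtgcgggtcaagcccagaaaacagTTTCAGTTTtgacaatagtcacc
Ccl28, chr13:119623569-119623848, plus strand: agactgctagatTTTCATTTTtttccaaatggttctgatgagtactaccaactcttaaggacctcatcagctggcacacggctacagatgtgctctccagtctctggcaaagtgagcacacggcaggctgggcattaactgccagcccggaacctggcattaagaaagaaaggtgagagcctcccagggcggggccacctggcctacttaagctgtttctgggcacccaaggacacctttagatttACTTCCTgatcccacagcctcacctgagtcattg
Jchain, chr5:88527868-88528147, minus strand: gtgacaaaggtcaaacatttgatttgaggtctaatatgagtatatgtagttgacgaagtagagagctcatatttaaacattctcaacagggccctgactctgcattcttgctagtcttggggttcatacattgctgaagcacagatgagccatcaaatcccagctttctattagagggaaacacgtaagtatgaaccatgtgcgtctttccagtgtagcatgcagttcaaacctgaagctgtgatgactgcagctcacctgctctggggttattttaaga
Cd79a, chr7:24897247-24897526, plus strand: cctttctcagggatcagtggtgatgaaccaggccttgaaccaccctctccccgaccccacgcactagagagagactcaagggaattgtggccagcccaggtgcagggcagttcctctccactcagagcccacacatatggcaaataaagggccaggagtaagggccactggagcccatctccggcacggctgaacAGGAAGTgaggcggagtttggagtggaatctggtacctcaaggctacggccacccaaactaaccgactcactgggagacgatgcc
The Pigr run holds the E-box at -71 to -66 from the start and an interferon core at 7 to 15. The Ccl28 run holds an interferon core at -238 to -230 and an ETS core at -4 to 2, Cd79a an ETS core at -55 to -49, and Jchain none of the 4 motifs. Tnfrsf17, whose run is not shown, held an interferon core at -101 to -93. Among 32851 RefSeq promoter windows of the same length, 6.79% held the E-box, 10.1% the interferon core, 1.69% the octamer and 8.65% the ETS core. A match describes the letters in the window and does not show a bound site.

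Pigr was high in 2 of the 5 organs, the sublingual gland and the liver. The 12 sublingual libraries ran from 953 to 1622 CPM with a median of 1384, and the 12 liver libraries from 970.2 to 1765 CPM with a median of 1265. The parotid libraries ran from 45.3 to 576 CPM (median 323), the submandibular from 48.0 to 337 CPM (median 103) and the pancreatic from 15.04 to 2773 CPM (median 79.5). No parotid or submandibular library reached the lowest sublingual or liver library, and 11 of the 12 pancreas libraries were at or below 139.9 CPM.

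The difference in Pigr between sublingual gland and liver was 0.05 on the log2 scale (SE 0.34) and did not pass the test (adjusted p = 0.923, edgeR quasi-likelihood test with Benjamini-Hochberg adjustment over 22062 genes, as for all adjusted p-values between tissues). With library totals alone, without TMM factors, sublingual stood 0.95 above liver (edgeR adjusted p = 0.0151), with unscaled medians of 2311 and 1212 CPM, so the size of this difference depends on the scaling. Sublingual Pigr exceeded submandibular by 3.46, pancreatic by 3.18 and parotid by 2.13 on the log2 scale, and liver Pigr exceeded submandibular by 3.402, pancreatic by 3.13 and parotid by 2.08 (edgeR adjusted p at most 2.62e-06). A call between tissues asks for an adjusted p under 0.05 and at least a 2-fold difference. Parotid Pigr was 1.32 above submandibular, which fell to 0.99 with library totals alone. Its 1.05 above pancreas (edgeR adjusted p = 0.0113) lay at the edge of 2-fold: with each animal left out in turn it ran from 0.63 (without CD1 female 1) to 2.13 (without CD1 female 2), and the call was kept in 5 of 12 cases. Animal CD1 female 2 held the lowest parotid library (45.3 CPM) and the highest pancreas library (2773 CPM), which enters every estimate against pancreas here. The medians were 323 CPM in parotid and 79.5 CPM in pancreas.

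Ccl28 was highest in the sublingual gland and lowest in the liver. Sublingual libraries ran from 242 to 555 CPM (mean 458 ± 92.3 SD, n = 12), submandibular from 71.7 to 150.0 CPM (100.1 ± 27.3), parotid from 14.8 to 106 CPM (59.0 ± 30.02), pancreatic from 2.93 to 25.6 CPM (14.6 ± 7.31) and hepatic from 2.51 to 8.65 CPM (5.70 ± 1.76). Sublingual libraries did not overlap any other tissue, and submandibular did not overlap pancreas or liver. Sublingual Ccl28 was 80.8-fold above liver (6.34 on the log2 scale), 5.01 above pancreas, 2.91 above parotid and 2.20 above submandibular on that scale, each called by edgeR. Submandibular exceeded parotid by 0.71 (edgeR adjusted p = 0.0152), which is under 2-fold and not called. With library totals alone the difference was 1.05 and called (edgeR adjusted p = 0.000363). Pancreas exceeded liver by 1.33, and by 0.61 with library totals alone, where the call was lost. The hepatic median was 1.25% of the sublingual median, within the range at which the organs' own secreted-protein genes were found in other organs. Whether the liver's Ccl28 counts are of that kind was not tested.

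**Figure D1:**
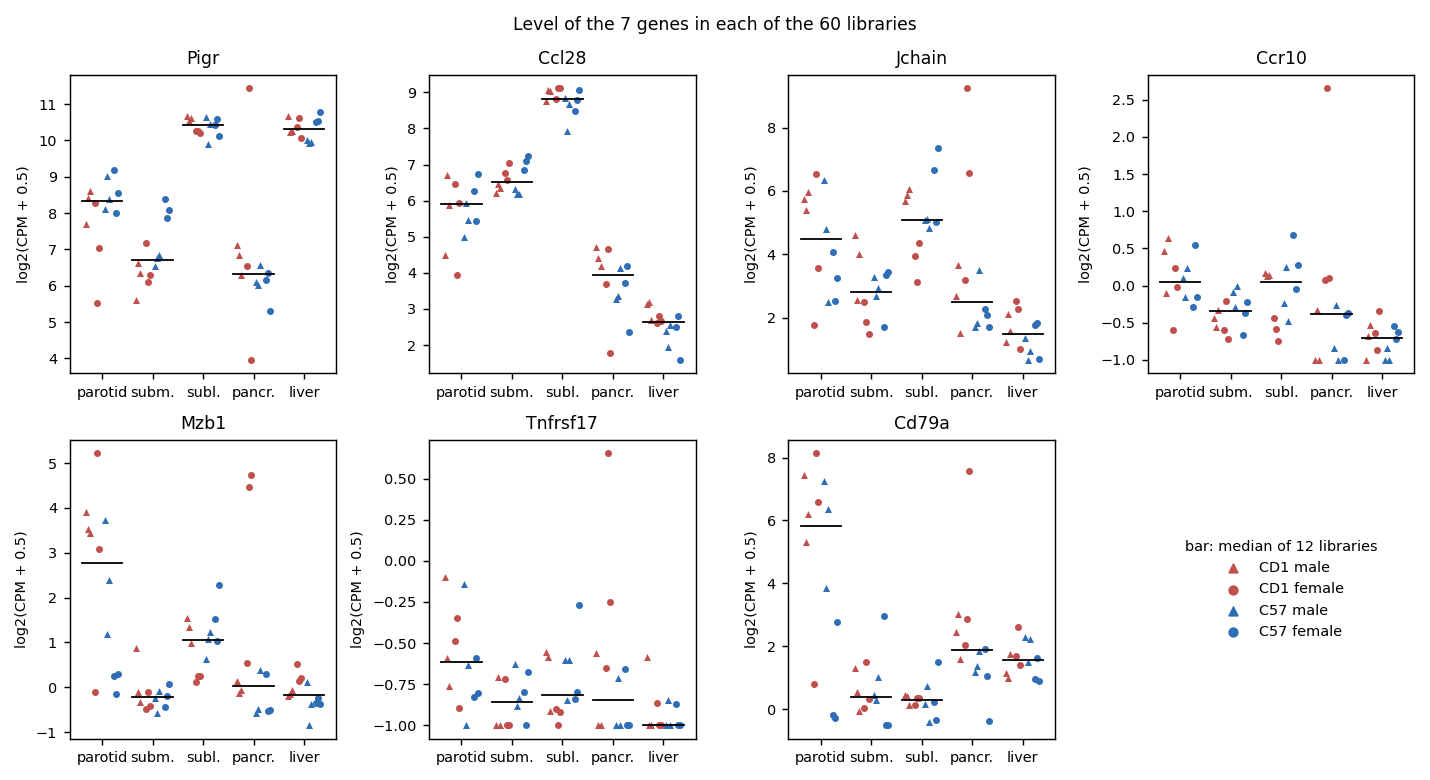
Each panel plots 1 gene as log2(CPM + 0.5) in the 60 libraries, by tissue on the horizontal axis (subm., submandibular; subl., sublingual; pancr., pancreas), with colour for strain, marker for sex and a bar at the tissue median of 12 libraries. Pigr is high in sublingual (953 to 1622 CPM) and liver (970.2 to 1765 CPM), Ccl28 falls from sublingual (242 to 555 CPM) to liver (2.51 to 8.65 CPM), and Cd79a spreads from 0.325 to 280 CPM within the parotid gland.

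Both transport genes were also set against the summed level of 10 epithelial genes (Epcam, Cdh1, keratins, claudins, Elf3 and Ehf) in the same library. Pigr stood at a median of 0.704 of that sum in sublingual libraries (0.439 to 0.787), 0.410 in parotid (0.209 to 0.568), 0.115 in pancreas and 0.0690 in submandibular (0.0297 to 0.246). Parotid Pigr was therefore within the sublingual range in some libraries on this measure, and submandibular Pigr was below every sublingual library. The low end of the sublingual range was C57 male 2 alone, and the next library was CD1 female 3 at 0.565. Parotid C57 male 3 (0.568) was the only parotid library above that. In liver the ratio was 2.36 (1.29 to 7.33), where the epithelial list had a median sum of 557 CPM, and where hepatocytes are known to make the receptor in rodents. Ccl28 stood at 0.216 of the epithelial sum in sublingual, 0.0718 in parotid, 0.0641 in submandibular, 0.0196 in pancreas and 0.0107 in liver libraries.

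Of 12 genes for trafficking of the receptor, 5 were higher in sublingual than in liver and 0 lower, with a median log2 difference of 0.74 against 0.21 over all 22062 genes. Of all genes, 48.9% were called between these organs, a larger share than among the 12. Rab3d, a small GTPase of apical vesicles, had medians of 358 CPM in sublingual and 20.5 CPM in liver. Rab10 and Rab5a, which act in early and recycling endosomes of many cell types, had medians of 83.2 and 46.1 CPM in sublingual and 91.9 and 44.8 CPM in liver. Of 19 genes of signalling known to induce Pigr (receptors for interferon gamma, IL-17, IL-4 and TNF, and their transcription factors), 4 were higher in sublingual than liver and 3 lower, also a smaller share than among all genes, with a median of -0.10. Between submandibular and sublingual glands, where Pigr differed by 3.46, 0 of these 19 genes and 0 of the 12 trafficking genes were called by edgeR, or by DESeq2, with 7 and 4 of them under an unadjusted p of 0.05 in the edgeR fit, where 14.9% of all genes were called. Stat6 (54.9 against 48.5 CPM) and Tnfrsf1a (43.8 against 43.6 CPM) had submandibular and sublingual medians side by side.

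Jchain, the partner that Pigr recognises, was highest in sublingual libraries and varied far more than Pigr. Sublingual libraries ran from 8.16 to 163 CPM (median 33.7), parotid from 2.91 to 91.4 CPM (21.8), submandibular from 2.26 to 23.7 CPM (6.53), pancreatic from 2.37 to 607 CPM (5.16) and hepatic from 1.08 to 5.27 CPM (2.28). Every sublingual library was above every liver library, the log2 difference being 4.03. Parotid exceeded liver by 3.61 and submandibular by 2.003, and sublingual exceeded submandibular by 2.42, all called by edgeR. Parotid and sublingual differed by 0.42 and were not called (edgeR adjusted p = 0.439). With library totals alone parotid was 1.06 lower and called (edgeR adjusted p = 0.0493). Without animal CD1 female 2, whose parotid library held 91.4 CPM, parotid was 1.07 lower (edgeR adjusted p = 0.0175). Liver, with Pigr at 970.2 to 1765 CPM, had the lowest Jchain median of the 5 organs.

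Mzb1 and Cd79a were highest in the parotid gland. Mzb1 had medians of 6.34 CPM in parotid (0.406 to 36.7), 1.57 in sublingual (0.594 to 4.34), 0.527 in pancreas, 0.387 in liver and 0.357 CPM in submandibular libraries. Parotid exceeded submandibular by 3.72, liver by 3.69, pancreas by 2.35 and sublingual by 1.80 on the log2 scale (edgeR). With the T cell sum of each library as a covariate, chosen after seeing the data, the parotid to sublingual difference turned to -1.23 and was not called (edgeR adjusted p = 0.0625). The calls of Mzb1 for parotid over pancreas and over submandibular gland were lost too (0.54 and 0.87, edgeR adjusted p = 0.326 and 0.205), and that over liver was kept. Cd79a had medians of 56.3 CPM in parotid, 3.22 in pancreas, 2.48 in liver, 0.825 in submandibular and 0.730 CPM in sublingual libraries. Parotid Cd79a was 49.5-fold above sublingual, although its lowest parotid libraries (0.325 and 0.381 CPM, C57 females 2 and 1) lay within the sublingual range of 0.253 to 2.37 CPM. With the T cell covariate 0 of the 7 calls of Cd79a between tissues were left, and parotid exceeded sublingual by 0.91, liver by 0.61, submandibular by 0.38 and pancreas by 0.05 on the log2 scale (edgeR adjusted p at least 0.257). The T cell sum itself differs between tissues and closely follows Cd79a and Mzb1 within parotid (r = 0.971 and 0.934). Fits with this covariate therefore cannot separate tissue from lymphoid content for these 2 genes. Submandibular and sublingual medians of Cd79a were 1.47 and 1.30% of the parotid median, again within the range found for the organs' secreted-protein genes, and the part of such RNA was not tested.

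Ccr10 and Tnfrsf17, the receptors that bring plasma cells in and keep them alive, were near the limit of these libraries. Median Ccr10 was 0.531 CPM in sublingual, 0.529 in parotid, 0.287 in submandibular, 0.267 in pancreas and 0.115 CPM in liver. The 3 salivary glands exceeded liver by 2.79 (parotid), 2.30 (sublingual) and 1.68 (submandibular) on the log2 scale, each called by edgeR. The call for pancreas over liver (1.68) was lost without the 3 libraries that stood apart. Ccr10 overlaps another gene in the RefSeq annotation and the sources used here do not say whether counting used strand, so its low values are uncertain. Tnfrsf17 had medians of 0.153 CPM in parotid and 0.0672 CPM in sublingual and was at a median of 0 in liver. Parotid exceeded liver by 2.75 and sublingual exceeded it by 1.77 in the edgeR fit, differences that rest on a few counts a library. The call for sublingual over liver (edgeR adjusted p = 0.0417) was lost in 7 of 12 fits that left out 1 animal, and without the filter on low counts.

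Counted over the 7 members, each pair of tissues gave the following calls. Parotid against liver called 7 of 7 (50.2% of all genes were called in that pair), sublingual against liver 6 (48.9%), submandibular against liver 4 (45.8%) and pancreas against liver 5 (42.8%). Sublingual against pancreas called 4 (31.7%), submandibular against pancreas 3 (28.7%) and parotid against pancreas 5 (26.3%). Among the salivary glands, parotid against sublingual called 4 (26.7%), parotid against submandibular 5 (21.3%) and submandibular against sublingual 4 (14.9%). Without the 3 libraries that stood apart, Mzb1 and Ccr10 lost their calls for pancreas over liver (0.32 and 1.17, edgeR adjusted p = 0.663 and 0.0716), and Mzb1 and Cd79a theirs for pancreas over submandibular gland (edgeR adjusted p = 0.568 and 0.153). Calls were gained there for sublingual over pancreas in Mzb1 (1.53, edgeR adjusted p = 0.00621) and parotid over pancreas in Ccr10 (1.56, edgeR adjusted p = 0.0141). In total 47 of 70 member-by-pair tests passed, 34 with the organ named first higher and 13 with it lower. Higher in liver were Pigr against parotid, submandibular gland and pancreas, and Cd79a against sublingual gland (log2 difference, sublingual minus liver, -1.71). The call for Cd79a was lost with library totals alone (-0.83, edgeR adjusted p = 0.214).

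Immunoglobulin heavy chain counts, which are no part of the 7 genes, give the isotype of the antibody transcripts in a library. In sublingual libraries Igha, the IgA heavy chain, made up 84.8 to 99.0% of all heavy chain counts (median 94.2%), over 2186 to 49195 heavy chain counts a library. In submandibular libraries it made up 46.3 to 91.2% (median 75.7%), in liver 22.3 to 64.8% (44.6%) and in pancreas 10.8 to 98.4% (36.8%). In parotid libraries the share ran from 1.61 to 94.0% with a median of 8.53%, while Ighm and Ighd, the isotypes of naive B cells, reached a median of 44.5%. Of the 12 parotid libraries, 7 were low in Igha: CD1 males 1, 2 and 3, CD1 females 2 and 3, and C57 males 1 and 3. In these 7, Ighm and Ighd made up 38.9 to 91.8% and the class-switched Ighg genes 1.62 to 55.3%. The Ighg genes were the largest class in CD1 male 2 (55.3%) and held 41.1% in CD1 male 3. Igha made up 55.8% in CD1 female 1, 69.7% in C57 male 2 and 94.0, 76.1 and 69.8% in C57 females 1, 2 and 3. Wilson intervals (95%) were narrow at these depths, for example 5.22 to 5.66% for parotid CD1 male 1, and cover counting error only. Heavy chain genes are near-identical copies in parts, and how reads shared among them were counted is not given in the sources used here.

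The ratio of Jchain to Igha was 0.183 to 0.349 in the 12 sublingual libraries (median 0.251) and 0.129 to 0.348 in the 12 submandibular libraries (median 0.257), while Igha itself ran from 30.8 to 807 CPM in sublingual libraries. The sublingual ratio was 0.260 to 0.349 in CD1 and 0.183 to 0.241 in C57, without overlap, and the cause was not tested. The submandibular ratios of the strains overlapped. In parotid libraries the ratio of Jchain to Igha ran from 0.171 to 6.93. Cd79a stood at 0.00668 to 0.0957 of Jchain in sublingual and at 0.0233 to 16.0 of Jchain in parotid libraries. Median Igha was 163.6 CPM in sublingual against 31.2 CPM in parotid libraries, the reverse of the order of Cd79a and Mzb1.

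**Figure D2:**
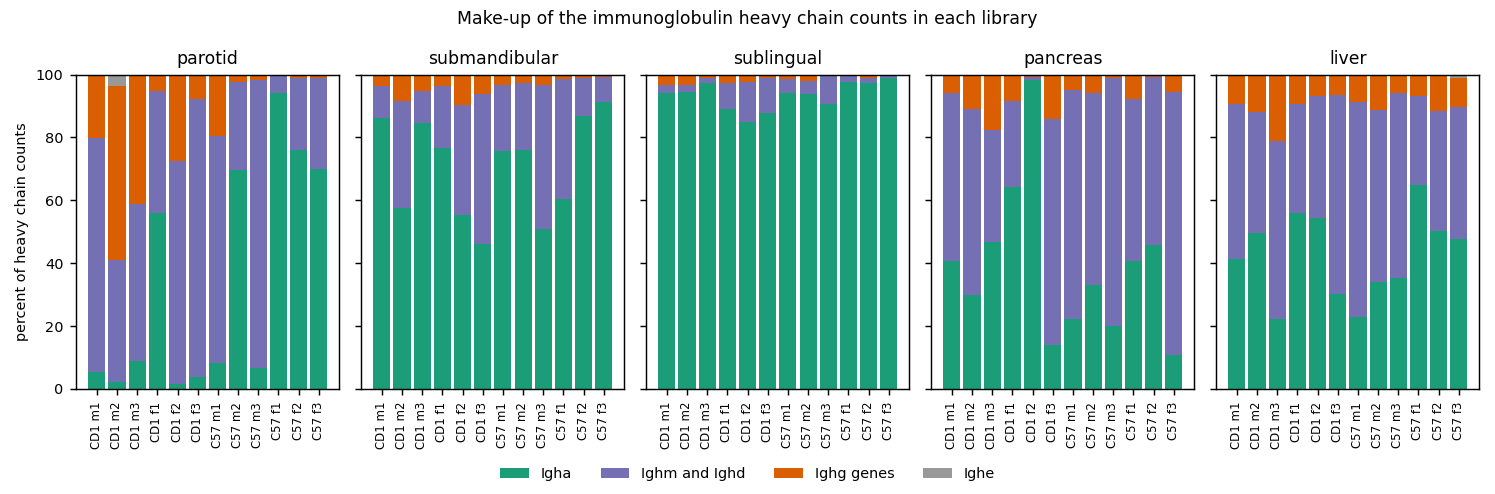
Each bar is 1 library and shows the percent of its heavy chain counts from Igha (green), Ighm and Ighd (purple), the Ighg genes (orange) and Ighe (grey), with 1 panel a tissue and libraries labelled by strain, sex (m or f) and replicate. All sublingual bars are at least 84.8% Igha, and the parotid bars range from 1.61 to 94.0%.

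Lymphoid genes outside the list differed between parotid and sublingual glands in the same way as Cd79a. All 16 B cell genes and all 16 T cell genes were called higher in parotid, where 26.7% of all genes were called in either direction. Their median log2 differences were 5.54 and 4.52 against 0.09 over all genes. Cd22 (31.7 against 0.584 CPM) and Lck (26.5 against 1.02 CPM) were among the most abundant of these genes, given here as medians. Of 11 tested genes of lymph node stroma and germinal centres, 9 were also higher in parotid, among them Glycam1, a product of high endothelial venules (8.87 against 0.666 CPM), and Ccl21a, a lymph node chemokine (25.5 against 2.43 CPM). The summed T cell list ran from 4.99 to 1130 CPM over the parotid libraries and from 2.99 to 18.1 CPM over the sublingual libraries, and no tested T cell or B cell gene was higher in sublingual. Of 15 further plasma cell genes, which secretory epithelium shares in part, 7 were higher and 1 lower in parotid than in sublingual (median 0.87), against 26.7% of all genes called.

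Within the parotid gland the members were set against the T cell sum. Over all 12 libraries Cd79a gave r = 0.971 and Mzb1 r = 0.934 (permutation, adjusted p = 0.00035 and 0.00105 over 35 relations), while Pigr gave r = -0.615 and rho = -0.685 and did not pass (permutation, adjusted p = 0.112 and 0.104). Within each strain (6 libraries) Pigr gave r = -0.667 in CD1 and -0.332 in C57 (exact permutation p = 0.144 and 0.458). Cd79a gave r = 0.971 in CD1 and 0.965 in C57 (exact permutation p = 0.00278 in each). The libraries fell into a set of 8 at 53.7 to 1130 CPM and a set of 4 at 4.99 to 13.6 CPM (C57 females 1, 2 and 3 and CD1 female 1), all from females, so relations were also computed within the 8, a choice made after seeing the data. There Cd79a rose with the T cell sum (Pearson r = 0.956, Spearman rho = 0.929, exact permutation p = 0.000471, two-sided, adjusted p = 0.0033 over the 7 members). For Pigr the relation was negative (r = -0.818, rho = -0.976, exact permutation p = 0.0123, adjusted p = 0.0429). Without the 2 libraries farthest from the median T cell sum r was 0.842 for Cd79a and -0.971 for Pigr (exact permutation p = 0.0361 and 0.00139). Ccl28 (r = -0.741, exact permutation adjusted p = 0.0628) and Mzb1 (r = 0.760, exact permutation adjusted p = 0.0628) did not pass after adjustment, nor did Jchain (r = 0.178, exact permutation adjusted p = 0.69). All values are shares of the same library's reads, so a gain in one kind of transcript lowers the others. The parotid library with the highest T cell sum, CD1 female 2, had the highest Cd79a (280 CPM) and the lowest Pigr (45.3 CPM) and Ccl28 (14.8 CPM) of the 12, with an epithelial sum of 167 CPM against 479 to 1229 CPM in the others.

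In the sublingual gland no relation of the 7 members to the T cell sum passed: r was -0.127 for Jchain, 0.205 for Cd79a, -0.0215 for Pigr and -0.0688 for Ccl28 (n = 12, permutation p = 0.695, 0.528, 0.946 and 0.83). Jchain there ran from 8.16 to 163 CPM at T cell sums of 2.99 to 18.1 CPM. In pancreas 2 libraries stood far above the rest, and over the other 10 Cd79a gave r = 0.742 (permutation adjusted p = 0.0671) and Mzb1 r = 0.580 (adjusted p = 0.229). Of 35 relations over 12 libraries each, 4 passed an adjusted p of 0.05, those of Cd79a and Mzb1 in parotid and pancreas, and 2 of 35 passed without the 3 libraries that stood apart.

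**Figure D3:**
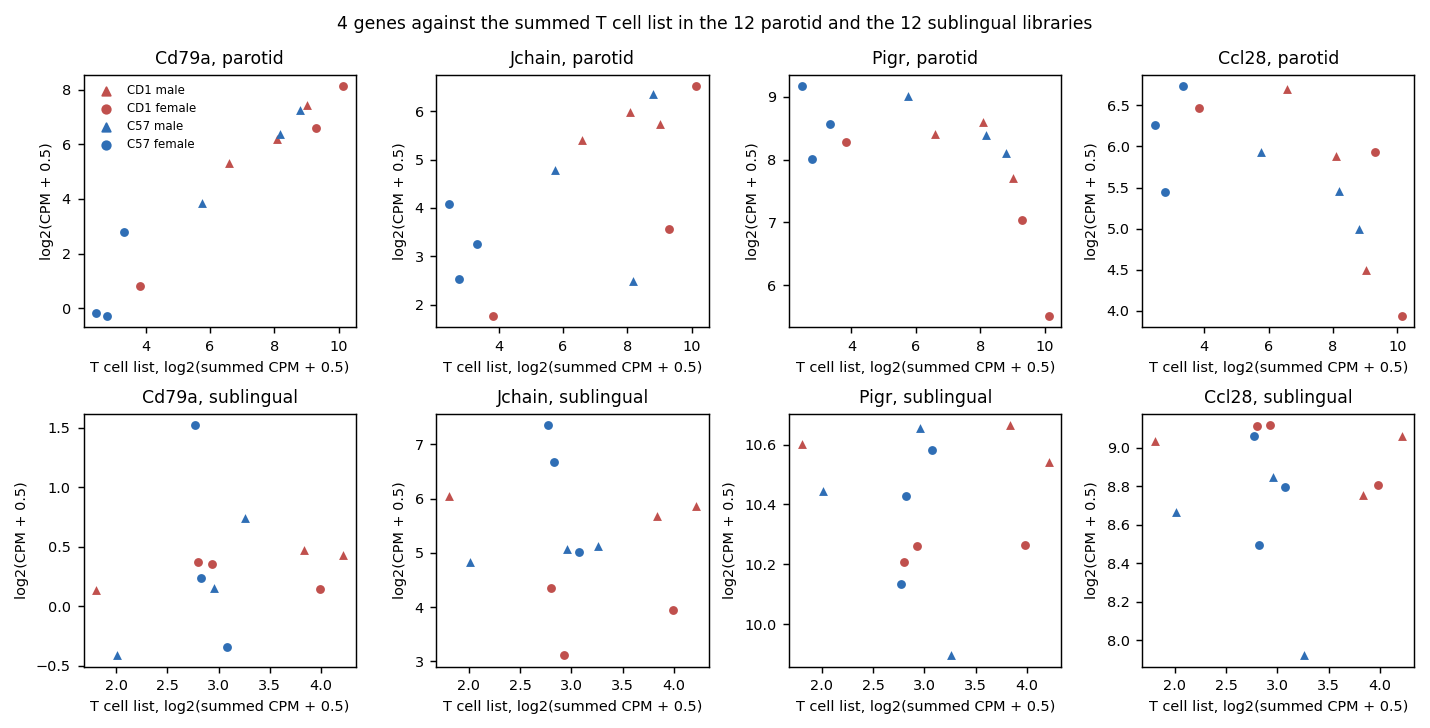
Each point is 1 library, with the summed CPM of 16 T cell genes on the horizontal axis and the gene's CPM on the vertical axis, both as log2(value + 0.5), for the parotid (top) and sublingual (bottom) libraries. In parotid, Cd79a climbs from 0.325 to 280 CPM over T cell sums of 4.99 to 1130 CPM while Pigr is lowest at the highest sum, and the sublingual points show no such course.

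A pair of pancreas libraries carried most of the spread in that organ. CD1 female 2 held Pigr at 2773 CPM, Jchain at 607 CPM, Ccr10 at 5.80 CPM and Tnfrsf17 at 1.07 CPM, the highest of the 60 libraries for each of the 4 genes, with Igha at 2278 CPM and Cd79a at 6.83 CPM. Its T cell sum was 141 CPM and its B cell sum 33.0 CPM. The same library held genes of intestinal epithelium, a list added after the data were seen, with Vil1 at 1148 CPM, Fabp2 at 2645 CPM, Cdx2 at 109 CPM and Muc2 at 292 CPM, and Cpa1, the pancreatic carboxypeptidase, at 33.5 CPM against 9538 to 103537 CPM in the 11 others. That library went against its label, and the part of gut tissue in its Pigr and Jchain was not tested. CD1 female 3 held Cd79a at 190.2 CPM, with B and T cell sums of 1203 and 936 CPM, a lymph node sum of 1172 CPM, Pigr at 15.04 CPM and Ccl28 at 2.93 CPM. In the 10 other pancreas libraries Pigr ran from 38.8 to 139.9 CPM, Jchain from 2.37 to 12.2 CPM, Cd79a from 0.273 to 7.73 CPM and Ccl28 from 4.64 to 25.6 CPM.

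The strains differed in 2 of 30 member-by-tissue tests, and in both the mean over the sexes was higher in C57. Mean submandibular Pigr in the 6 CD1 libraries was 86.1 ± 32.4 CPM (SD), and in the 6 of C57 it reached 193 ± 102 CPM, a log2 difference of -1.01 (SE 0.215, edgeR adjusted p = 0.0163); 1 of 6 tested members was called there, against 4.75% of all genes. The strains overlapped: CD1 males lay at 48.0 to 99.1 CPM, CD1 females at 68.2 to 142.8 CPM, C57 males at 92.1 to 114 CPM and C57 females at 234 to 337 CPM. All C57 females stood above all other submandibular libraries, yet the strain by sex interaction of 1.11 did not pass (edgeR adjusted p = 0.546). The T cell sum was 4.55 to 11.1 CPM in C57 and 5.59 to 17.1 CPM in CD1, and with it as a covariate the strain call was lost (edgeR adjusted p = 0.112), as it was in the fit of all 60 libraries (0.385). Ccl28 in the same glands did not pass for strain (log2 difference -0.07, SE 0.119, edgeR adjusted p = 0.839).

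Sublingual Mzb1 averaged 1.32 ± 0.781 CPM among CD1 mice, with 2.13 ± 1.17 CPM among C57 mice, a log2 difference of -0.85 (SE 0.26, edgeR adjusted p = 0.0476); 1 of 7 members was called there, against 14.8% of all genes. Leaving out 1 animal ended this call in 10 of 12 cases, and it was lost with the replicate number as a block and without sublingual C57 male 2 (edgeR adjusted p = 0.0778 in both). Mzb1 was higher in C57 among females only, at 1.55 to 4.34 CPM against 0.594 to 0.698 CPM in CD1 females. Males overlapped, at 1.06 to 1.85 CPM in C57 and 1.47 to 2.42 CPM in CD1. The strain by sex interaction of 2.47 did not pass (edgeR adjusted p = 0.616), while DESeq2 called it. Sublingual Jchain gave -0.97 (SE 0.318) and missed the threshold (edgeR adjusted p = 0.0598, against 0.0486 with the block), at 36.3 ± 24.8 CPM for CD1 mice against 65.3 ± 55.5 CPM for C57 mice. Igha, which is no member, averaged 130.4 ± 92.7 CPM in sublingual libraries of CD1 mice against 324 ± 289 CPM for C57 (log2 difference -1.40, SE 0.304, edgeR adjusted p = 0.0104). Its order also differed by sex. All CD1 males (178 to 244 CPM) stood above all C57 males (117 to 156 CPM), and all C57 females (171 to 807 CPM) above all CD1 females (30.8 to 57.4 CPM). Slamf7 (-2.69), a receptor of plasma cells and other lymphocytes, was lower in CD1, and Ighg1 (2.67) and Cd38 (1.37), an ectoenzyme of lymphocytes, were higher in CD1 in the same libraries (edgeR adjusted p of 0.000908, 0.0487 and 0.000813). These genes were called in the same direction in submandibular glands (Slamf7 -1.84, Ighg1 4.22, Cd38 0.69), and Ighg1 in parotid (6.20). Sublingual Ighg1 was low, at 1.09 ± 1.61 CPM in CD1 and 0.123 ± 0.131 CPM in C57.

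In pancreas, parotid and liver 0 members were called for strain by edgeR, against 3.74, 2.02 and 14.1% of all genes, with 4, 2 and 1 member tests under an unadjusted p of 0.05. DESeq2 called 9 of the 30 member-by-tissue tests for strain. No share of all genes is given here for that count or for the unadjusted p. The largest estimates were in pancreas, with CD1 above C57 by 3.26 for Cd79a (edgeR adjusted p = 0.0693) and by 3.14 for Jchain and 2.88 for Mzb1 (edgeR adjusted p = 0.0544 for each). Without the pair of CD1 libraries described above these were 1.09 for Cd79a, 0.77 for Jchain and 0.81 for Mzb1 (edgeR adjusted p = 0.212, 0.351 and 0.567). Pancreatic Pigr gave 2.18 with the pair and 0.54 without it (edgeR adjusted p = 0.152 and 0.161). With 1 animal left out at a time, Cd79a ran from 1.33 to 3.69, Jchain from 2.14 to 3.59, Mzb1 from 2.57 to 3.35 and Pigr from 0.16 (without CD1 female 2) to 2.47. Parotid estimates were 2.95 for Cd79a (edgeR adjusted p = 0.17) and 2.75 for Mzb1 (edgeR adjusted p = 0.105), and the parotid strains overlapped, with C57 females 1, 2 and 3 and CD1 female 1 at the low end.

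Whether the strain difference was the same in all 5 tissues was tested in 1 fit of the 60 libraries. It was unequal for 4 of 7 members, against 10.1% of all genes: Mzb1 (edgeR adjusted p = 0.00622), Pigr (0.0115), Jchain (0.0176) and Cd79a (0.0385). Mzb1 kept its call when each animal was left out in turn. Pigr and Jchain kept it in 7 and Cd79a in 3 of 12 such fits, and Pigr was at an adjusted p of 0.243 in edgeR without animal CD1 female 2. Jchain and Cd79a lost it without the 3 libraries that stood apart (0.319 and 0.134). With each animal as a block only Mzb1 passed (0.0121), against 0.0781 for Pigr, 0.0901 for Jchain and 0.113 for Cd79a. With the T cell sum as a covariate only Pigr passed (0.0045). Ccl28 (0.792), Ccr10 (0.252) and Tnfrsf17 (0.441) did not pass in the edgeR fit.

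Sex differences of members were called in the submandibular gland, and no test compared them between tissues. Both transport genes were higher in females there, 2 of 6 tested members against 17.2% of all genes. Ccl28 was 77.7 ± 6.49 CPM in males (71.7 to 87.7) and 122 ± 19.8 CPM in females (95.5 to 150.0), without overlap (log2 difference, male minus female, -0.68, SE 0.119, edgeR adjusted p = 0.00167). Pigr was 90.3 ± 23.8 CPM in males and 189 ± 109 CPM in females (log2 difference -0.92, SE 0.215, edgeR adjusted p = 0.0107), with overlap. Both calls held with each animal left out in turn. Both were lost in the fit of all 60 libraries together.

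The submandibular gland of male mice is known for its enlarged granular ducts, and Egf, their growth factor product, was 5.61 higher in males on the log2 scale (edgeR adjusted p = 3.13e-06). Beside the transport genes, 7 of 9 tested macrophage genes were higher in males, with Csf1r at 0.85 and C1qa at 0.93, as were 4 of 10 epithelial genes. Of all genes 17.2% were called for sex in this gland, with a median log2 difference of -0.02. Of 6 tested genes of the intestinal epithelium list, 3 were higher in females, Fabp2 (-4.29), Vil1 (-1.70) and Cdh17 (-6.96), with a list median of -1.65. Its sum was 28.3, 25.6 and 30.9 CPM in CD1 females 1 and 2 and C57 female 3, while the males held 7.28 to 10.5 CPM and the other females 8.13 to 9.89 CPM. The part of these shifts in the Pigr and Ccl28 values was not tested. Of the 12 trafficking genes 2 were higher in females, Rab27b (-0.82) and Rab3d (-0.74), and 2 higher in males, Stx3 (0.57) and Ap1m2 (0.57). Of the 19 inducers 2 were higher in females, Il17rc, a subunit of the IL-17 receptor (-0.97), and Tnfrsf1a (-0.42), a smaller share than the 17.2% of all genes. Jchain in submandibular glands did not pass (edgeR adjusted p = 0.0835). Cdh17, Rab27b, Stx3, Ap1m2 and Il17rc were named after their values were seen. For sex, 0 members were called in parotid, sublingual, pancreas and liver by edgeR, where 0.0319, 0.0691, 0.0307 and 2.64% of all genes were, with 0, 0, 2 and 1 member tests under an unadjusted p of 0.05. DESeq2 called 4 of the 30. No share of all genes is given here for that count or for the unadjusted p.

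No strain by sex interaction of a member was called by edgeR, while 12 of 30 had an unadjusted p under 0.05 and DESeq2 called 4. Among all genes edgeR called 0.0479% in liver, 0.0226% in submandibular, 0.0106% in sublingual and 0.0% in parotid and pancreas. The shares of all genes under an unadjusted p of 0.05 or called by DESeq2 are not given here. The 12 and the 4 therefore cannot be set against them. The lowest p was for sublingual Jchain (3.70 on the log2 scale, edgeR adjusted p = 0.216, DESeq2 adjusted p = 0.00136). CD1 males lay at 51.0, 57.8 and 66.1 CPM and CD1 females at 14.9, 8.16 and 20.01 CPM, without overlap. C57 males lay at 33.0, 34.4 and 27.9 CPM and C57 females at 101.7, 31.9 and 163 CPM. The order of the sexes was thus opposite in the 2 strains except for C57 female 2, at a level among those of the C57 males.

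**Figure D4:**
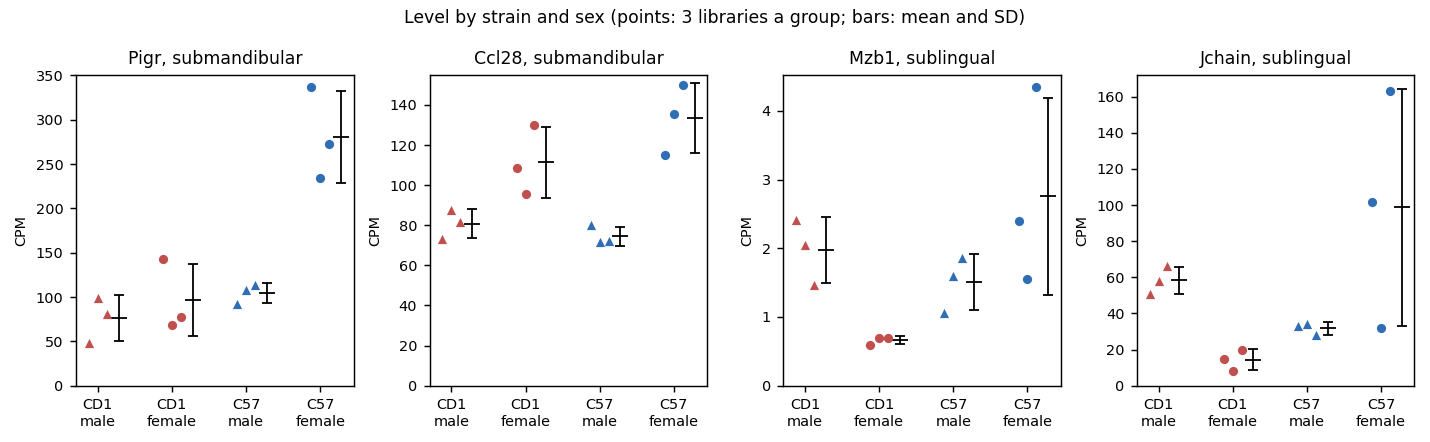
Points are single libraries in CPM for 4 gene and tissue pairs, grouped by strain and sex, with the mean and SD of 3 libraries beside them. Submandibular Pigr is highest in C57 females (234 to 337 CPM), submandibular Ccl28 is higher in females (95.5 to 150.0 CPM) than in males (71.7 to 87.7 CPM), and sublingual Jchain is lowest in CD1 females (8.16 to 20.01 CPM).

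Of 17 tested survival and homing genes, 12 were higher and 1 lower in parotid than in sublingual (median 2.19), where 26.7% of all genes were called. In sublingual against liver 3 were higher and 3 lower (median 0.22), a smaller share than the 48.9% of all genes. Cxcl12, a chemokine that holds plasma cells in bone marrow, had medians of 330 CPM in liver, 54.8 in parotid and 17.9 CPM in sublingual. Itgb1, a subunit of integrins that bind Vcam1, had medians of 163 CPM in sublingual and 106 CPM in parotid. Tnfsf13, which encodes APRIL, the ligand of Tnfrsf17, had a median of 8.21 CPM in sublingual and 4.53 CPM in submandibular libraries, and was named after its values were seen.

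The genes most like each member over the 60 libraries, by Pearson r of log2(CPM + 0.5) across 13531 genes, are given as a description, since libraries of 1 tissue and 1 animal are not independent points. For Cd79a they included Pax5 (0.982) and Ms4a1 (0.979), both genes of B cell identity. For Mzb1 they were Pou2af1 (0.939), a B cell coactivator, Iglc2 (0.915) and Lax1 (0.909). For Jchain they were the antibody genes Igkc (0.955), Igha (0.853) and Igkv10-96 (0.850). For Tnfrsf17 they were Igkv1-135 (0.778), Mgst2 (0.760) and Col6a4 (0.758), and for Ccr10 Flvcr1 (0.794), Phlpp2 (0.785) and Sdcbp2 (0.772). For Ccl28 they were Cpd (0.976), Maea (0.973) and Mpzl1 (0.971), and for Pigr Sh3d19 (0.904), Sppl2a (0.881) and Dglucy (0.870), none of them a lymphoid gene. Pigr and Ccl28 correlated at 0.200, Pigr and Cd79a at -0.252, and Jchain and Cd79a at 0.311.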

How the data were processed

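The authors deposited a table of read counts per gene for the 60 libraries, made with Trim Galore, HISAT2 and featureCounts on GRCm39, per the submitters' processing notes; versions and use of strand are not given in the sources used here. Low counts (1 to 20) were even 1.68 times as often as odd, as when both reads of a pair are counted, so intervals from counts are too narrow. The 7 members and the gene lists were chosen with earlier results of these data known. CPM were computed from the deposited counts with TMM factors in edgeR 4.0.16 (R 4.3.3, limma 3.58.1). Quasi-likelihood tests with Benjamini-Hochberg adjustment were run on all genes passing edgeR's filter on low counts. Tissues were compared in 1 fit of 20 group means over 60 libraries (22062 genes), where all 7 members passed the filter. Strain, sex and their interaction were tested in 1 fit of 12 libraries for each tissue, where Pigr, Jchain, Mzb1, Ccl28 and Cd79a passed in 5 tissues, Ccr10 in 3 and Tnfrsf17 in 2, which gives 30 tests. Logged values used a pseudocount of 0.5 CPM, and relations used 100000 permutations (scipy 1.17.1) or exact enumeration. DESeq2 1.42.0, other filters and scalings, a T cell covariate, blocks and left-out animals were alternatives.

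Named genes were the members, the 3 genes most like each, the 3 most abundant of each list, list genes called for strain (at most 4 in each direction) and tissue identity genes, and others are marked; some genes under this rule are not reported here. The library names show which 5 tissues come from 1 animal, so the animal pairs tissues, and deviations of the same animal correlated at -0.198 to 0.570 between tissues. The scripts were tested on simulated data. Library pairs within groups differed beyond counting noise (chi-square per degree of freedom at least 21.6 in 60 pairs), so every library counted as 1 replicate, and p-values reflect the spread between animals. Promoter sequences are from RefSeq.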

Additional observations from a re-analysis of the deposited data

Results flagged for a closer look

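In 6 of 70 sets of 6 libraries (7 genes, 5 tissues, 2 strains) the highest or lowest library lay apart by Dixon's test, which chance does in about 1 in 20. In pancreas, Cd79a in CD1 female 3 was 190.0 CPM against 7.73 CPM in the nearest CD1 library, Ccl28 in the same library was 2.93 CPM against 12.4 CPM, Ccr10 in CD1 female 2 was 5.8 CPM against 0.577 CPM, and Jchain in C57 male 3 was 10.8 CPM against 4.35 CPM. Mzb1 in submandibular CD1 male 1 was 1.35 CPM against 0.425 CPM. Tnfrsf17 in liver CD1 male 1 was 0.167 CPM against 0.0484 CPM, a matter of a few counts.

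The strain difference was unequal in the 5 tissues for Mzb1 (edgeR adjusted p = 0.00622), Pigr (0.0115), Jchain (0.0176) and Cd79a (0.0385). With each animal as a block only Mzb1 kept its call, and with the T cell covariate only Pigr did. Jchain and Cd79a lost theirs without the 3 libraries that stood apart. With 1 animal left out, the call held in 12 of 12 fits for Mzb1, 7 for Pigr and Jchain, and 3 for Cd79a.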

How the results depend on the processing

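Of 70 tissue tests of members 47 passed, 31 at a 4-fold minimum, 49 with the animal as replicate block, and 43 to 50 with each animal left out. Library totals alone ended calls for pancreas over liver (Ccl28, Ccr10, Mzb1) and over submandibular (Cd79a, Mzb1). They also ended parotid over submandibular (Pigr, Ccr10) and liver over sublingual (Cd79a). Calls were gained there for parotid over pancreas (Ccr10, Tnfrsf17) and sublingual over pancreas (Ccr10, Mzb1). Sublingual over parotid (Jchain) and submandibular over parotid (Ccl28) were gained too. Strain tests passed in 2 of 30, in 2 with the replicate number as a replicate block (sublingual Mzb1 lost at edgeR adjusted p = 0.0778, sublingual Jchain gained at 0.0486), 9 with DESeq2, 6 in 1 fit of all 60 libraries (neither submandibular Pigr nor sublingual Mzb1 among them), 6 without a filter on low counts, 5 with library totals alone (chosen after seeing the data), 1 without the 3 libraries that stood apart, 0 with the T cell covariate and 1 to 7 with each animal left out, 7 without CD1 female 1. Sex tests passed in 2, in 2 with the replicate block, 4 with DESeq2 and 2 to 4 with each animal left out. Interaction tests passed in 0, in 0 with the replicate block, 4 with DESeq2, 2 without the filter and 0 to 2 with each animal left out. The test across tissues passed for 4 members, 1 with the T cell covariate (chosen after seeing the data), 1 with the animal as replicate block, 2 without the 3 libraries and 1 to 4 with each animal left out. Relations to the T cell sum passed in 4 of 35, and in 2 without the 3 libraries. Mzb1 in parotid against sublingual turned to -1.23 with the T cell covariate (edgeR adjusted p = 0.0625). The cause of these changes was not tested. Shares of all genes called under these alternatives are not given here, so the counts of members cannot be set against them. The replicate number joins different animals across strains and sexes, whose deviations had a median correlation of -0.165 in parotid. Counting error is largest for Tnfrsf17 (median 2 counts) and Ccr10 (10.5).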
